A study of Mus musculus with 8 samples.

Results

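Genes of cholesterol synthesis and of its control by SREBP2 were followed in mouse NIH3T3 cells through arsenite stress and recovery. The set was chosen by name and holds 8 genes: the enzyme genes Hmgcs1, Idi1, Fdps, Fdft1, Sqle and Lss, and the regulators Insig1 and Srebf2. Of these, 6 were listed in all 3 tables of genes, among 9875 genes that were, and 7 were listed in at least 1 table, among 10690. Idi1 was listed in the AS table only, and Hmgcs1 was listed in none of the tables used here, so it has no value below.

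NIH3T3 is an established fibroblast line derived from mouse embryos, with no genetic change reported in the labels. All cells were cultured in DMEM with calf serum, and RNA was total RNA extracted with TRIzol. NT cells received no arsenite, AS cells received 250 µM sodium arsenite for 1 h, and RC4 and RC8 cells were given that treatment and then 4 h or 8 h of recovery. Each condition is 1 QuantSeq FWD library, in which reads lie close to the polyadenylation site (PAS) of an mRNA. A condition thus had no replicate and no test was possible. Intervals cover counting error only, and since the reads carry no molecular identifiers they may repeat the same molecule.

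Cholesterol is built from acetyl-CoA. HMG-CoA synthase, encoded by Hmgcs1, acts on the way to mevalonate, which is converted to isoprenoid units, to farnesyl pyrophosphate, to squalene and finally to the sterol ring. The genes of this route are targets of SREBP2, the transcription factor that Srebf2 encodes. SREBP2 is made as a membrane protein of the endoplasmic reticulum and is carried by SCAP to the Golgi, where proteases release its active part. When sterols are plentiful, INSIG proteins hold SCAP and its cargo back. Insig1 and Srebf2 are themselves SREBP targets, so that the pathway feeds back on its own regulators.

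Promoter windows are shown as the place where the sterol regulatory element was searched for. RefSeq windows on the GRCm38.p6 build were given for 5 of the 8 genes. In the 250 bases before the start of 3 of them, all on the + strand, capitals mark ATCACCCCA, letters close to the sterol regulatory element, and the NF-Y box CCAAT, which is read as ATTGG on the other strand.
Srebf2, chr15:82147019-82147268: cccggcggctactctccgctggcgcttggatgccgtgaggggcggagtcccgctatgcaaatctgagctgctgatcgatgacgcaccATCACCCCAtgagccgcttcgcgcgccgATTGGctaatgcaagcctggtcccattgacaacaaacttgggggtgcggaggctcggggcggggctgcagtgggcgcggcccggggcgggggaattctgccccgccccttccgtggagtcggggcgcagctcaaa
Insig1, chr5:28071162-28071411: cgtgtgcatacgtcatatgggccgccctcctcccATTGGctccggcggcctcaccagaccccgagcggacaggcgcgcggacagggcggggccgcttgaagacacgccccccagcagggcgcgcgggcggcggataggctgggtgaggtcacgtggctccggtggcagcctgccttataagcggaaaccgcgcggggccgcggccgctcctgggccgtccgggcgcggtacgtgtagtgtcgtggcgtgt
Lss, chr10:76531355-76531604: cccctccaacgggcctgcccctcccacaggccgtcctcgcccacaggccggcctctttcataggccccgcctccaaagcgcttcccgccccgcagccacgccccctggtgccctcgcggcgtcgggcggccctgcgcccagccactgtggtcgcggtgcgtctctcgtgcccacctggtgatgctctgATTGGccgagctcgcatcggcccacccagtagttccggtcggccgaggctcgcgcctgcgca

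The Srebf2 window held ATCACCCCA from -163 to -155 relative to the start and CCAAT on the other strand from -135 to -131. The form ATCACCCCA was found in 0.28% of 32851 windows and was added to the search after the sequences had been seen. The 9 letters TCACNCCAC, searched on both strands, were found in the Hmgcs1 window alone among the 5, from -137 to -129, and in 1.24% of all windows. The Insig1 and Lss windows held neither form. Each of the 5 windows held CCAAT, as did 37.4% of all windows, and each held the Sp1 box GGGCGG, as did 35.7%. The Insig1 window also held the E box CACGTG, from -101 to -96, which was found in 7.15% of windows. These are letters found in a window and not sites of binding.

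The tables hold PASs in the mm9 build, and the authors' tables label all 15 PAS positions of the 7 listed genes as lying in the 3′-most exon. Distances follow the GENCODE vM1 annotation, in whose transcript models the Lss PAS at 4046 nt lies 1635 nt and the Idi1 PAS 69 nt past the end of the last exon. The last bases before the cleavage site are shown for the PASs of Lss and Insig1, which the results below describe one by one, and for Fdps as a gene with 1 PAS. Each run has 30 bases that end at the PAS, except for the Lss PAS at 2374 nt, whose run ends 9 nt upstream of it. Capitals mark AATAAA, the signal for cleavage, where it was found within 40 nt upstream, or its form ATTAAA where AATAAA was absent. The Lss run at 866 nt also holds ATTAAA, left in lower case.
Lss, 624 nt after the stop codon, chr10:76016437, +: cagaaatgctactaaaagtcatttgaatga
Lss, 866 nt, chr10:76016679, +: taaatcctgaaAATAAAatattaaaaacaa
Lss, 2374 nt, chr10:76018187, +: tatttaAATAAAtttttgctgaatgctgtt
Lss, 2415 nt, chr10:76018228, +: aaatacaactgtatggtgatatatagttaa
Lss, 4046 nt, chr10:76019859, +: ttgaacactacaaacattatgcagcaatga
Insig1, 167 nt, chr5:28403527, +: agactagcaaatggaggcaaggactgctta
Insig1, 1842 nt, chr5:28405202, +: ttttttacttttATTAAAggttcaaaacca
Fdps, 55 nt, chr3:88897510, -: gagggggtctcAATAAAttattgttcaaca

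AATAAA preceded 4 of the 15 positions, and ATTAAA without AATAAA preceded 1. For comparison, 40.6% of 18102 PASs in 3′-most exons had AATAAA, 12.3% had ATTAAA without AATAAA and 47% had neither. The Lss PASs with the signal were those at 866 and 2374 nt, and the most proximal PAS, at 624 nt, had neither form.

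Each library had between 22.4 M and 23.0 M reads on genes. Levels are given as RPM, a gene's reads scaled to a library of 1000000 reads on genes, so a lower RPM does not tell less RNA of a gene from more RNA of others, nor fewer expressing cells from less RNA per cell. NT reads of the 6 genes were within 2% of each other in the 3 tables. The labels were checked with Hspa1b, a heat shock protein gene with a near-identical copy that may share its reads, at 42.3 RPM (NT), 218 (AS), 2370 (RC4) and 90.4 (RC8), and with Hmox1, the heme oxygenase gene, at 27.6, 57.8, 888 and 101 RPM. Of the 6 listed genes of that check, 3 (AS), 5 (RC4) and 4 (RC8) were at least 1.5-fold above NT, against 1.88%, 8.04% and 11.3% of all genes. Srxn1 and Txnrd1 were below NT in AS, at log2 ratios of -0.08 and -0.14. Gclm was past 1.5-fold in no library. All 8 fibroblast markers of a list were present in each table, and none of 11 markers of epithelial cells, leukocytes, endothelium and hepatocytes was. Relative to NT, the median gene was at a log2 ratio of -0.04 (AS), -0.30 (RC4) and 0.01 (RC8).

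Sterol pathway mRNAs were near or above their NT level after 1 h of arsenite, were split in RC4, and were lower than NT for every listed gene in RC8. Insig1 had the highest ratio to NT in AS, Sqle and Fdft1 had the lowest in RC4, and Lss had the lowest in RC8. A gene is called higher or lower here when its RPM differed at least 1.5-fold, which is 0.58 on the log2 scale. In AS, 2 of 7 genes were higher by this measure and none was lower, against 1.88% of 10452 genes higher and 11.4% lower. In RC4, none of 6 was higher and 4 were lower, against 8.04% and 31.8% of 10081 genes. In RC8, none was higher and 6 of 6 were lower, against 11.3% and 11.9% of 10441 genes. The listed genes had a median log2 ratio of 0.27 for AS, -0.73 for RC4 and -1.06 for RC8.

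The RC4 count depended on the scale. Relative to the median gene, which stood at -0.30 in RC4, 2 of 6 genes were lower, Sqle and Fdft1, where 17.4% of all genes were. On that scale the counts were 2 of 7 higher in AS and 6 of 6 lower in RC8, the same as above. The RC8 ratios moved by 0.01 or less between the scales.

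**Figure D1:**
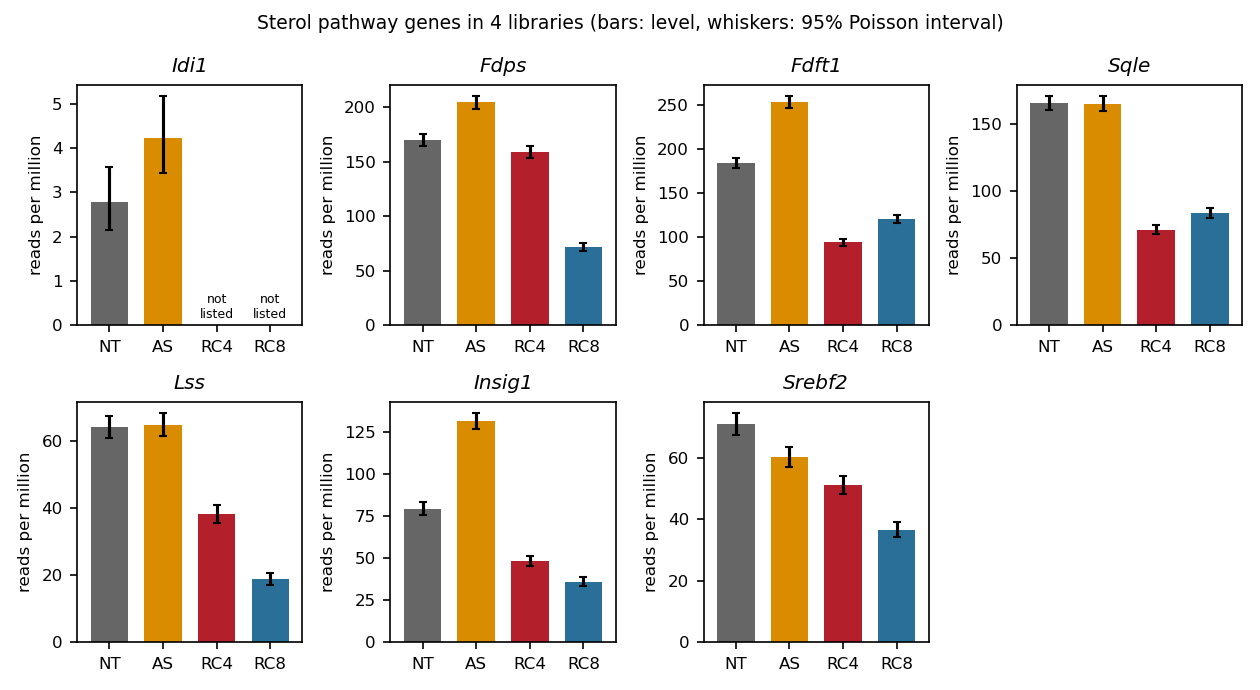
Level in RPM (bars, linear axis from 0) of 7 sterol pathway genes in the NT, AS, RC4 and RC8 libraries, with exact 95% Poisson intervals (whiskers). RC8 was the lowest library for Fdps, Lss, Insig1 and Srebf2, and RC4 was the lowest for Sqle and Fdft1. AS was the highest, with its interval apart from the others, for Fdps, Fdft1 and Insig1. Idi1 has values in NT and AS only, and their intervals overlap.

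Idi1 encodes isopentenyl diphosphate isomerase, which interconverts the isoprenoid building blocks. Its level was 2.79 RPM in NT (95% Poisson interval 2.14 to 3.57) and 4.23 RPM in AS (3.42 to 5.18), from 63 and 95 reads, and the intervals overlapped. The log2 ratio was 0.60 (95% interval 0.13 to 1.08), which counts as higher, but the 63 NT reads stood in the second of the 2 read columns and the first column held 0. In the second column alone AS was below NT, at a log2 ratio of -0.35. Without Idi1, 1 of 6 genes was higher in AS, which was Insig1.

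Fdps encodes farnesyl pyrophosphate synthase, at the branch point from which squalene and prenyl groups are made. It was at 169.9 RPM (NT), 204 (AS), 159 (RC4) and 71.8 (RC8). RC8 stood apart from the other libraries. The log2 ratio to NT was 0.27 in AS (0.20 to 0.33) and -0.10 in RC4 (-0.17 to -0.03), neither past 1.5-fold, and -1.24 in RC8 (-1.33 to -1.16), a 2.37-fold lower level. Relative to the median gene the RC4 value was 0.20, so its direction turned with the scale.

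Fdft1 encodes squalene synthase, the first enzyme committed to sterols. It was at 184 RPM (NT), 254 (AS), 94.5 (RC4) and 121 (RC8). AS was above NT by 0.47 on the log2 scale (0.41 to 0.52), short of 1.5-fold, and both recovery libraries were below NT. The log2 ratio was -0.96 in RC4 (-1.04 to -0.89) and -0.61 in RC8 (-0.68 to -0.54), and the RC8 interval spanned the 1.5-fold limit.

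Sqle encodes squalene epoxidase, a rate-limiting enzyme of the later pathway. It was at 165 RPM in NT and in AS, 71.2 in RC4 and 83.8 in RC8. NT and AS did not differ beyond their counting intervals. Its log2 ratio was -1.22 in RC4 (-1.30 to -1.14) and -0.98 in RC8 (-1.06 to -0.90), and the RC4 level, 2.33-fold lower than NT, was the lowest ratio of the 6 genes in that library.

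Lss encodes lanosterol synthase, which closes the sterol ring. It was at 64.0 RPM (NT), 64.8 (AS), 38.2 (RC4) and 18.9 (RC8). NT and AS overlapped, and the level then stepped down in each recovery library. The log2 ratio was -0.75 in RC4 (-0.87 to -0.63) and -1.76 in RC8 (-1.92 to -1.61). The 3.39-fold lower level in RC8 was the largest difference among the 6 genes, and 0.421% of all genes were at or below it.

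Insig1 encodes the protein that retains SCAP when sterols are high, and it was the gene with opposite calls. It was at 79.4 RPM (NT), 131 (AS), 48.4 (RC4) and 36.0 (RC8), and no intervals of neighbouring levels overlapped. AS was 1.65-fold above NT, at a log2 ratio of 0.72 (0.64 to 0.81), a ratio that 98.8% of all genes were at or below. RC4 was 1.65-fold below NT, at -0.72 (-0.83 to -0.61), and RC8 was 2.2-fold below, at -1.14 (-1.26 to -1.02). Relative to the median gene the RC4 value was -0.415, short of 1.5-fold, so that call depended on the scale.

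Srebf2, the gene of SREBP2 itself, was at 70.9 RPM (NT), 60.2 (AS), 51.0 (RC4) and 36.6 (RC8). It was the only one of the 7 genes whose AS level was below NT beyond the counting interval. Its log2 ratio to NT went from -0.23 for AS (-0.34 to -0.13) and -0.48 for RC4 (-0.59 to -0.37) to -0.95 for RC8 (-1.07 to -0.82), and RC8 alone passed 1.5-fold.

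**Figure D2:**
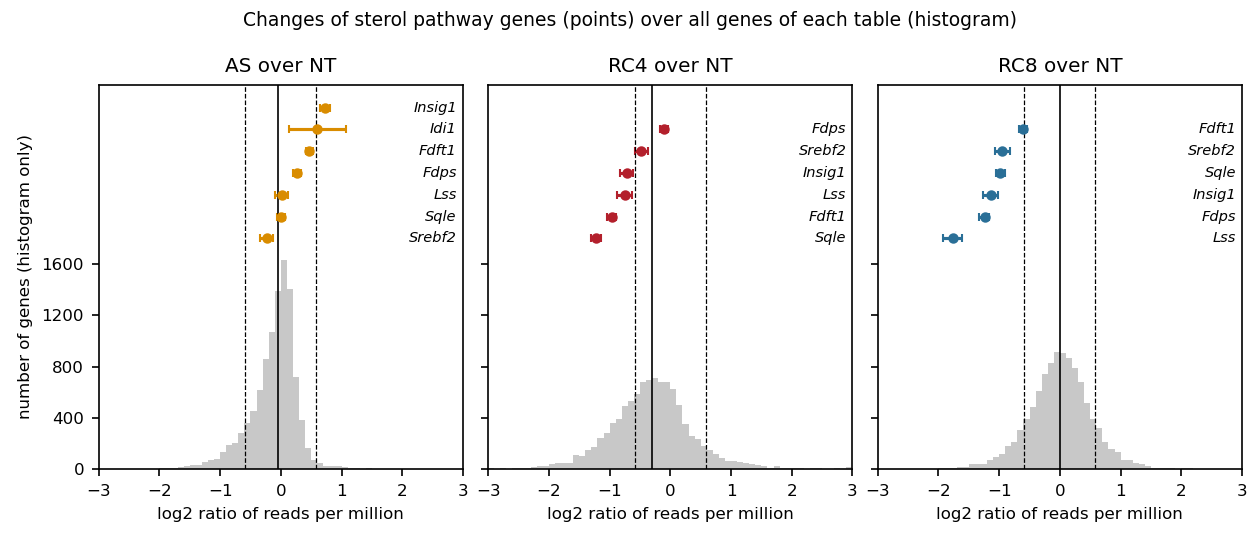
Log2 ratio of RPM to NT for the listed sterol pathway genes (points, with 95% counting intervals, spread vertically for reading) above a histogram of all genes of the same table, with the median gene (solid line) and the 1.5-fold limits (dashed lines); ratios beyond 3 are drawn in the end bins. All 6 points lie left of the lower limit in RC8, where the median gene is at 0.01, and 4 do in RC4, where it is at -0.30.

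The recovery libraries were also compared with their neighbours in time, with NT equal between the tables as given above. From AS to RC4, 4 of 6 genes were lower and none was higher, against 26.6% lower and 12.5% higher of 9940 genes. Insig1 was 2.71-fold lower (log2 ratio -1.44, -1.54 to -1.34) and Fdft1 2.69-fold lower (-1.43, -1.50 to -1.36), and these were the largest steps. Relative to the median gene, which was at -0.22, 3 of 6 were lower, and Lss at -0.55 was no longer past 1.5-fold. The share of all genes past 1.5-fold was not counted on that scale. Of all genes, 6.39% were at or below the ratio of Sqle, the highest of the 3, and 18.6% were at or below that of Lss. From RC4 to RC8, 2 of 6 were lower and none was higher, against 6.59% lower and 30.6% higher of 9972 genes. Those were Fdps, 2.21-fold lower (-1.15, -1.23 to -1.06), and Lss, 2.02-fold lower (-1.02, -1.19 to -0.85).

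Sqle and Fdft1 moved the other way between RC4 and RC8, by 0.24 (0.14 to 0.33) and 0.35 (0.27 to 0.44) on the log2 scale. Both values were short of 1.5-fold, and relative to the median gene, which was 0.26 higher in RC8 than in RC4, they were -0.03 and 0.09. Insig1 and Srebf2 were at -0.42 and -0.48. On the scale of the median gene, 4 of 6 genes were lower in RC8 than in RC4. The share of all genes past 1.5-fold was not counted on that scale. Of all genes, 10.5% were at or below the ratio of Insig1, the highest of the 4.

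The other enzymes of the route were taken from lists of the mevalonate and isoprenoid steps and of the steps from squalene to cholesterol, with 20 genes in all. Summed over the enzymes listed, the RPM was 3498 in NT and 4018 in AS for 19 genes, 3503 in NT and 2585 in RC4 for 18, and 3496 in NT and 1740.0 in RC8 for 18. The log2 ratio was above 0 for 16 of 19 enzymes in AS, and it was below 0 for 17 of 18 in RC4 and 16 of 18 in RC8. The share of all genes above or below 0 was not counted. The median gene itself stood at -0.04 (AS), -0.30 (RC4) and 0.01 (RC8). Past 1.5-fold, 1 of 19 was higher in AS, which was Idi1. In RC4 12 of 18 were lower, and in RC8 16 of 18 were lower. Of all genes, 1.88% were higher and 11.4% lower in AS, and 31.8% (RC4) and 11.9% (RC8) were lower. Relative to the median gene, 7 of 18 were lower and 1 was higher in RC4, and 16 of 18 were lower in RC8. On that scale 17.4% of all genes were lower and 15.0% higher in RC4, and 12.1% were lower in RC8. Without the genes described above, the counts were 0 of 14 past 1.5-fold in AS, 9 of 14 lower in RC4 and 12 of 14 lower in RC8, with median log2 ratios of 0.10, -0.61 and -1.0.

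In the mevalonate steps, Mvd, the mevalonate diphosphate decarboxylase gene, showed the lowest ratio of the route. It was at 106 RPM (NT), 114 (AS), 22.1 (RC4) and 36.1 (RC8), with a log2 ratio of -2.26 in RC4 (-2.40 to -2.12) and -1.55 in RC8. Mvk, the mevalonate kinase gene, was at 135, 177, 54.0 and 89.9 RPM, and like Mvd it was lowest in RC4. Acat2, of acetyl-CoA thiolase, and Pmvk, of phosphomevalonate kinase, were lowest in RC8, at 195 RPM against 567 in NT for Acat2 and 43.3 against 118 for Pmvk. Past the pyrophosphates, Ggps1, which leads to geranylgeranyl groups and not to sterols, was at a log2 ratio of 0.29 in RC8 (0.11 to 0.46); Ggps1 and Tm7sf2 are named after their values were seen, as the 2 enzymes with a ratio above 0 in RC8.

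In the sterol steps, 11 of 12 genes were lower in RC8 and none was higher, against 11.9% and 11.3% of all genes. Nsdhl, Ebp, Hsd17b7 and Dhcr7, which encode late enzymes of the pathway, were between 2.04-fold and 2.27-fold lower than NT in RC8. In RC4, Dhcr7 was 2.14-fold lower. Cyp51, lanosterol 14-demethylase, took another course, with 794 RPM (NT), 954 (AS), 999 (RC4) and 406 (RC8). Its log2 ratio in RC4 was 0.33 (0.30 to 0.36), the only one above 0 among 18 enzymes, and in RC8 it was -0.97 (-1.0 to -0.93). Tm7sf2, a sterol 14-reductase gene, was at 0.16 in RC8 (0.05 to 0.27).

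**Figure D3:**
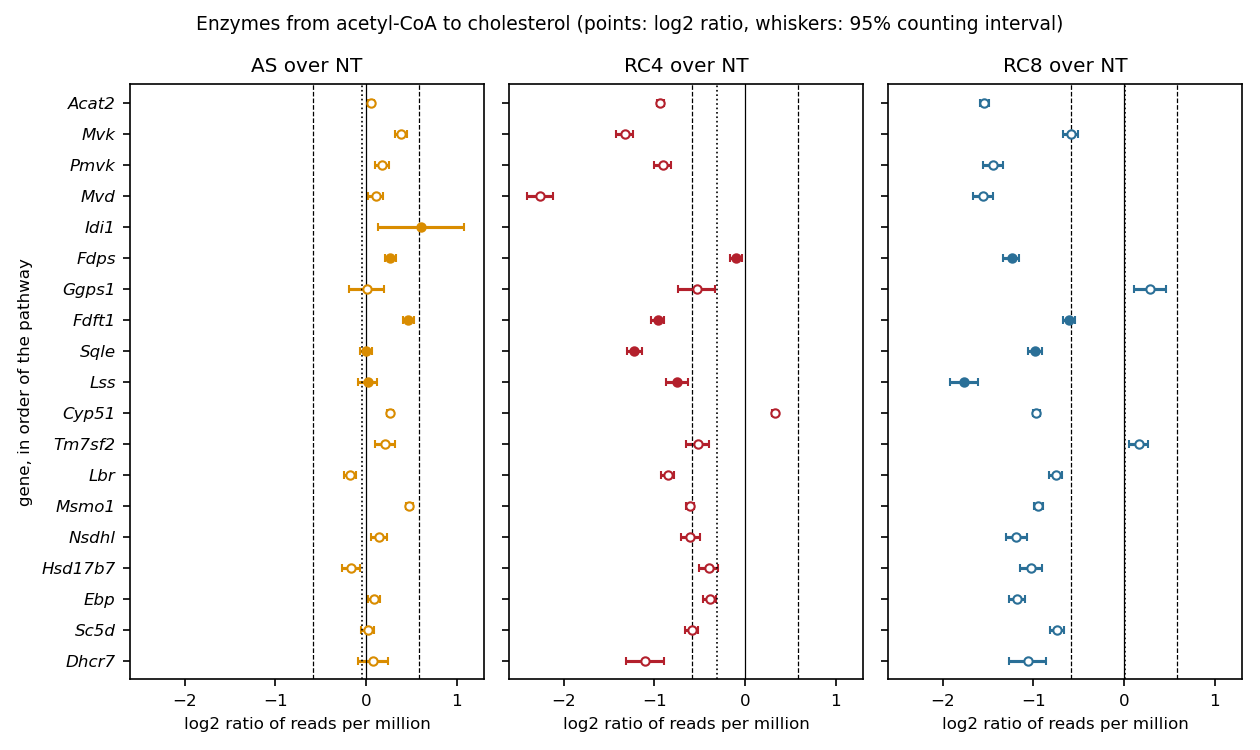
Log2 ratio of RPM to NT for the enzymes from acetyl-CoA to cholesterol, in order of the pathway, with 95% counting intervals (whiskers); filled points are Idi1, Fdps, Fdft1, Sqle and Lss, the dotted line is the median gene and dashed lines are the 1.5-fold limits. In RC8, 16 of 18 enzymes lie left of the lower limit, past which 11.9% of all genes lie, and Ggps1 and Tm7sf2 lie right of 0.

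Fibroblast markers were also lower in RC8. Of 8, 5 were past 1.5-fold lower and none was higher, with a median log2 ratio of -0.85, and their summed level was 14500 RPM in NT and 8720 in RC8. The share of all genes lower in RC8 was 11.9%. S100a4, a calcium-binding protein gene, made up most of that sum, at 10300 and 5710 RPM. The lowest ratio was that of Col3a1, a collagen gene, at -1.79, and the highest that of Fn1, the fibronectin gene, at 0.06, with 683 and 714 RPM. Vim, of the filament protein vimentin, at -0.32 and Thy1, a surface protein gene, at -0.40 were also short of 1.5-fold. In RC4, 3 of 8 were lower, against 31.8% of all genes, and 2 were relative to the median gene, and in AS none was past 1.5-fold. The part of a wider change of the cells in the sterol gene values was not tested.

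Genes that process and restrain SREBP, a list of 14 that includes Srebf2 and Insig1, gave 1 higher (Insig1) and 1 lower (Mbtps2, a protease gene, 1.81-fold) in AS, 9 lower in RC4 and 3 lower in RC8, where 31.8% and 11.9% of all genes were lower. In AS, 1.88% of all genes were higher and 11.4% lower. On the scale of the median gene, 5 of the list were lower in RC4, against 17.4% of all genes. The 3 in RC8 were Insig1, Srebf2 and Insig2, whose product also retains SCAP. Insig2 was at 39.5 RPM (NT), 32.0 (AS), 17.6 (RC4) and 24.8 (RC8). Scap was at 101 RPM (NT), 113 (AS), 68.6 (RC4) and 96.2 (RC8), with a log2 ratio of -0.06 in RC8 (-0.15 to 0.02). Srebf1, which encodes the SREBP1 relative of SREBP2, was at 19.5, 22.6, 12.4 and 20.9 RPM, and its RC8 ratio of 0.10 (-0.09 to 0.29) spanned 0. Of the rest, Rnf145, a ubiquitin ligase gene, was 2.52-fold lower in RC4, and Erlin2, of the erlin complex in the endoplasmic reticulum, was 2.26-fold lower there. The list had a median log2 ratio of -0.17 for AS, -0.72 for RC4 and -0.18 for RC8.

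In sterol uptake and transport, 8 of 9 genes were listed, of which 2 were lower in AS, Mylip and Osbp, 5 were lower and 1 higher in RC4, and 4 were lower and 1 higher in RC8. Of all genes, 11.4% were lower in AS, 31.8% were lower and 8.04% higher in RC4, and 11.9% and 11.3% in RC8. Relative to the median gene, 4 of the 8 were lower and 2 higher in RC4, Npc1 at 1.52 and Soat1 at 0.88. On that scale 17.4% of all genes were lower and 15.0% higher in RC4. The gene higher in RC8 was Soat1, of cholesterol esterification, 1.54-fold above NT. Mbtps2, Osbp and Soat1 are named after their values were seen. Stard4, a sterol carrier gene, was 2.86-fold lower in RC4 and 2.39-fold lower in RC8. Mylip, a ubiquitin ligase gene, was 3.37-fold lower in RC4 and 2.17-fold lower in RC8. Scarb1, a lipoprotein receptor gene, was 2.22-fold lower in RC4, and Lrp1, a lipoprotein receptor-related gene, was 2.25-fold lower in RC8. Npc1, needed to export cholesterol from lysosomes, was 2.33-fold higher in RC4, at 21.1 RPM against 9.05. The median log2 ratio of the list was -0.36, -0.81 and -0.70 in AS, RC4 and RC8.

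Of a list of 6 genes of LXR, its targets and sterol efflux, only Nr1h2 was listed, which encodes an LXR receptor itself. It was past 1.5-fold in no library. No LXR target or efflux gene of that list, Abca1 among them, had a value. Of 13 fatty acid genes that SREBP1 is known to drive, 1 was lower in AS, Acaca, 5 were lower in RC4 and 6 of the 12 listed were lower in RC8, against 31.8% and 11.9% of all genes in the recovery libraries. In AS, 11.4% of all genes were lower. None of the list was higher on this scale. With the median gene as reference, none was lower in AS, where Acaca was at -0.57. In RC4 4 were then lower and 2 higher, Elovl5 at 0.64 and Me1 at 0.61, both named after their values were seen. Of all genes, 17.4% were lower and 15.0% higher in RC4 on the median scale. Fasn, fatty acid synthase, was at 413 RPM (NT), 389 (AS), 141 (RC4) and 230 (RC8). Scd1, a stearoyl-CoA desaturase gene, was at 110.0, 104, 84.6 and 56.4 RPM. Acaca, of the carboxylase that starts fatty acid synthesis, was 2.35-fold and Elovl6, of fatty acid elongation, 3.29-fold lower in RC4. Acsl3, of acyl-CoA activation, was 2.22-fold and Elovl6 2.09-fold lower in RC8. Acss2, of acetyl-CoA synthesis, was 2.08-fold lower in RC4, with 71 reads, and was not listed for RC8.

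Among 7808 other genes with at least 200 reads in every library, the genes nearest to the median log2 ratios of the 6 genes listed in all tables, 0.14 (AS), -0.73 (RC4) and -1.06 (RC8), were Pkig, 2810001G20Rik, Vars, Nmral1 and Slc25a5. Their Euclidean distances over the 3 ratios were 0.061, 0.064, 0.15, 0.16 and 0.16. The nearest gene of the cholesterol route outside the set was Nsdhl, at place 8, followed by Ebp at place 82 and Dhcr7 at place 86. The 3 ratios share the NT library, and likeness over 3 values describes these libraries only.

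Use of PASs was read from the fractions per PAS that the authors obtained with MAAPER, their read assignment method. A gene is called changed here when a PAS differed from NT by at least 10 percentage points. None of 4 genes with more than 1 PAS was changed in AS, 1 of 5 was in RC4 and none of 4 was in RC8, against 15.2%, 29.0% and 26.9% of all genes with more than 1 PAS. The gene changed in RC4 was Lss.

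Lss had 4 PASs. The most proximal, 624 nt after the stop codon, held 22.3% of the NT reads of Lss (95% Wilson interval 20.2% to 24.5%), 21.7% of those in AS, 46.8% in RC4 (43.5% to 50.1%) and 23.2% in RC8. RC4 stood 24.5 points above NT and the other libraries were within 1 point of it. A difference as large was found in 3.61% of 5343 genes in RC4. The PAS at 4046 nt went from 17.0% to 8.81% in RC4, and the PAS at 2415 nt, which stands 41 nt from the one listed at 2374 nt in the other tables, went from 19.2% to 8.92%.

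Multiplied by the level of the gene, the shares showed where Lss reads were lost. In RC4, reads at the proximal PAS were at 17.9 RPM (16.6 to 19.1) against 14.3 in NT (13.0 to 15.7), while reads at the PAS at 866 nt, which has AATAAA, were at 13.6 against 26.6. The PASs at 2415 and 4046 nt were at 3.41 and 3.36 RPM against 12.3 and 10.9. The lower Lss level in RC4 thus lay in the 3 more distal PASs. In RC8, by contrast, all 4 PASs were lower, at 4.38 against 14.3, 8.70 against 26.5, 3.17 against 12.2 and 2.60 against 11.0 RPM.

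**Figure D4:**
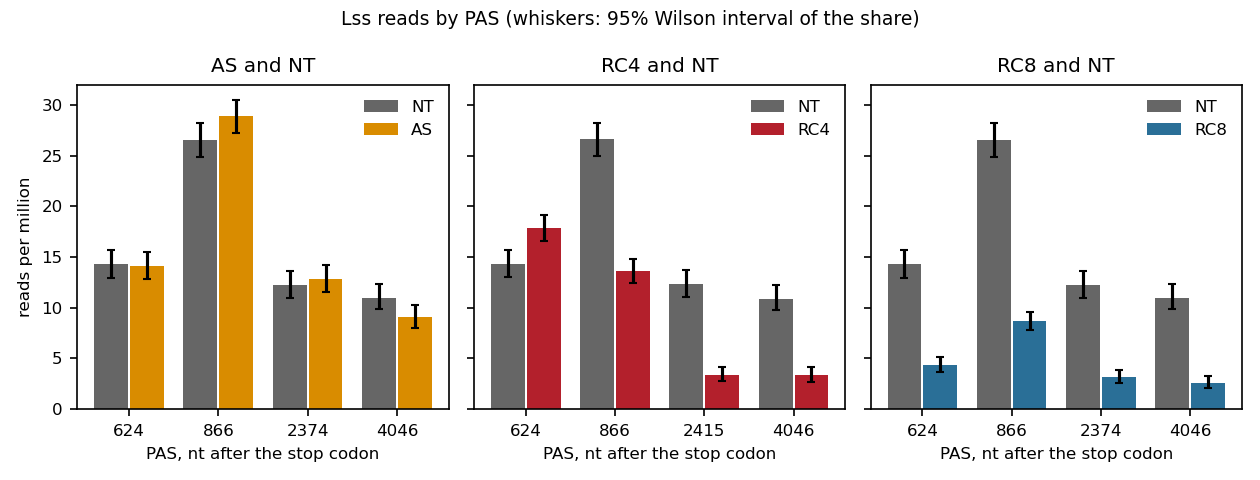
Lss reads in RPM at each PAS (bars, linear axis from 0), by distance from the stop codon, in NT and in the treated library of each table, with whiskers from the 95% Wilson interval of the share. In RC4 the proximal PAS is above NT and the 3 others are below it, and in RC8 all 4 are below NT.

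The RED score, the log2 ratio of the distal to the proximal PAS in a treated sample minus that in NT for the pair with the largest changes, was computed from the fractions. For Lss in RC4 it was -2.18 ± 0.21 (counting error) between the PASs at 624 and 2415 nt. In AS and RC8 the pair was another, at 866 and 4046 nt, with scores of -0.40 ± 0.16 and -0.47 ± 0.24.

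Insig1 reads were assigned to the PAS at 1842 nt alone in the AS and RC8 tables. The RC4 table lists a second PAS, 1675 nt upstream, with 2.46% of reads in NT (1.83% to 3.28%) and 10.6% in RC4 (8.89% to 12.5%). This was 8.14 points, short of a call, and the RED score was -2.23 ± 0.26. In reads, the proximal PAS was at 1.96 RPM in NT and 5.13 in RC4, while the distal one was at 77.6 and 43.2. In the AS and RC8 comparisons the same NT library is given 100.0% at the distal PAS. PASs below a proportion of 5% were not kept, so the proximal share in AS and RC8 is not known.

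Sqle, Fdft1 and Srebf2 had a pair of PASs each. Those of Sqle, chr15:59162630 and chr15:59162748 on the + strand, are 118 nt apart, those of Fdft1, chr14:63765365 and chr14:63765218 on the - strand, 147 nt, and those of Srebf2, chr15:82035148 and chr15:82035782 on the + strand, 634 nt. In these genes no share differed from NT by more than 6.3 points. The distal PAS of Sqle held 84.4% of reads (NT), 81.3% (AS), 82.5% (RC4) and 78.7% (RC8) (76.8% to 80.5%). The NT value was the highest, and the RED score was -0.57 ± 0.10 in RC8 and -0.20 ± 0.11 in RC4. The distal PAS of Fdft1 held 50.6% (NT), 47.5% (AS), 51.7% (RC4) and 45.5% (RC8).

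The distal PAS of Srebf2 held 41.3% of NT reads (38.9% to 43.7%), 45.8% of AS reads (43.1% to 48.4%), 36.1% of RC4 reads (33.4% to 38.9%) and 47.6% of RC8 reads (44.2% to 50.9%). Only RC4 was below NT, and the NT and AS intervals overlapped. Its RED score was 0.26 ± 0.11 (AS), -0.32 ± 0.11 (RC4) and 0.37 ± 0.12 (RC8). Fdps and Idi1 had 1 listed PAS each, at chr3:88897510 and chr13:8891710.

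**Figure D5:**
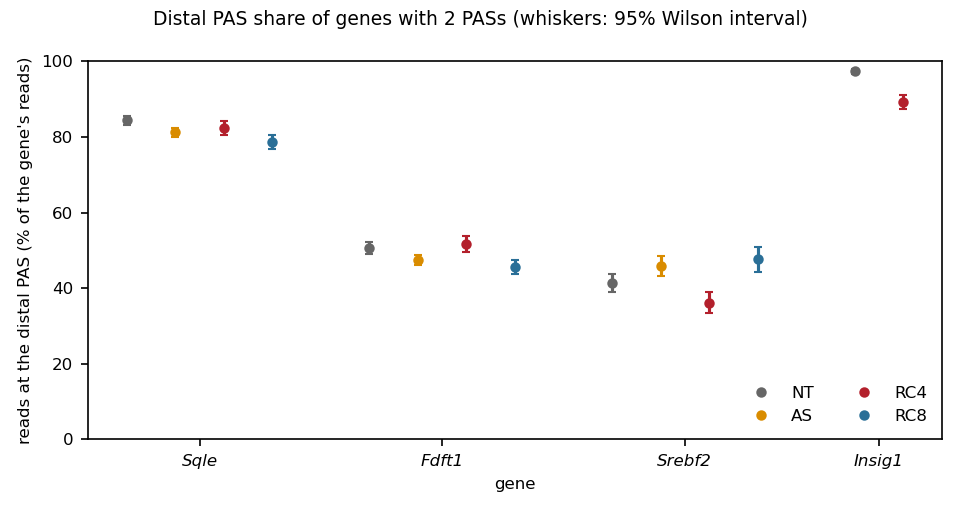
Share of a gene's reads at the distal PAS in percent (points, with 95% Wilson intervals) for Sqle, Fdft1 and Srebf2 in NT, AS, RC4 and RC8, and for Insig1 in NT and RC4, the libraries of the table in which it has 2 PASs. Insig1 goes from 97.5% in NT to 89.4% in RC4, and Srebf2 is at 36.1% in RC4 and between 41.3% and 47.6% in the other libraries.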

How the data were processed

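Gene tables for AS, RC4 and RC8, each against NT, were analysed, 1 library per condition. According to the methods, the authors trimmed reads with bbmap, mapped them with STAR (version 2.5.2a, mm9, per the labels) and ran MAAPER with PolyA_DB PASs. Only genes with at least 50 reads and PASs with a proportion of 5% or more were kept, so genes below that in a library are not listed. The authors deposited unnormalized counts of reads on each gene, and every library has 2 such columns. PAS use was deposited by the authors as the fraction of a gene's reads per PAS and library. The gene tables also hold the authors' P values of a likelihood ratio test and a Fisher test, and their RLD and RED scores, which were not used. The 4 QuantSeq REV libraries were not analysed here.

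The 2 columns were added and not treated as replicates. Genes with reads in both agreed within sampling noise (mean squared deviation 0.974 to 1.03 of the counting variance), and 43 to 93 genes per library had 0 in 1 column. Counts were scaled to the total on genes of the table, 22.4 M to 23.0 M. Ratios carry exact conditional 95% intervals of 2 Poisson counts, levels exact Poisson intervals and shares Wilson intervals. RED scores carry standard errors from counting. At 22.6 M NT reads, 63 reads give an interval of 2.14 to 3.57 RPM. No model was fitted and no P value given. The functions were tested on simulated counts. Members and gene lists were chosen with earlier results of these data known. Named genes were all members, list genes at least 2-fold from NT in any comparison, a set fixed by name, and the 5 genes nearest in pattern. Some list genes are not reported here and were left out of the list counts. Sequences of promoters came from RefSeq (GRCm38.p6) and of PASs from the mm9 genome with GENCODE vM1. Python 3.11.15, numpy 2.4.6, pandas 2.3.3 and scipy 1.17.1 were used. Alternatives were other scalings, each read column alone, other thresholds and a higher read minimum.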

Additional observations from a re-analysis of the deposited data

Results flagged for a closer look

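Insig1 was 1 of the genes listed in all tables and had opposite calls against NT in AS and in the recovery libraries. The log2 ratio of Insig1 was 0.72 for AS, -0.72 for RC4 and -1.14 for RC8. Relative to the median gene it was 0.764, -0.415 and -1.14, so the RC4 value was no longer past 1.5-fold. With 1 library per condition the difference was not tested.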

How the results depend on the processing

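Of 113 single values of the 7 genes under 6 alternatives, 99 stayed within their counting interval, 13 moved beyond it and 1 called value turned its direction. Idi1 turned in the second read column alone, at -0.35, because its first NT column held 0. Another 4 values, none past 1.5-fold, changed sign: Fdps in RC4, at 0.20 with the median scale and 0.19 with TMM, and Sqle in AS, at 0.037 and 0.042. In AS, the number of higher genes was 1 in either read column or without Idi1 and 0 at 2-fold, and the median log2 ratio was 0.13 in the first column, 0.013 in the second and 0.14 without Idi1. In RC4, scaling to the median gene gave 2 lower genes and a median of -0.43, and TMM gave 2 and -0.44, since the median gene lies below the total. In RC8, the first read column alone gave 5 lower genes, with Fdft1 at -0.55. A threshold of 2-fold left 1 lower gene in RC4 and 3 in RC8. The share of all genes past 2-fold was not counted, so these counts have no background. A threshold of 5 points gave 3 of 5 genes with a changed PAS in RC4 and 3 of 4 in RC8, against 58.8% and 57.7% of all genes with more than 1 PAS. Of 66 counts over lists or all genes, 8 moved by over 1.5 times, 6 of them with the median scale, and the share of genes higher in AS was 1.12% at 200 reads or more. The 5 genes nearest in pattern could not change with the median scale, which shifts every gene of a comparison by the same amount. No paired analysis was possible because each condition had 1 library.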
